A study of Rattus norvegicus with 2 samples.

Results

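The genes described here are C1qa, C1qb and C1qc, which encode the A, B and C chains of complement C1q, the anaphylatoxin receptor genes C3ar1 and C5ar1, and Cfp, which encodes properdin. They were chosen by symbol, and all 6 of 6 were found among the 26976 gene symbols of the deposited matrix, each on 1 line of the file. The cells came from the rat left ventricle 7 days after surgery, from infarct and border tissue together, and were sorted for CD45, a surface protein of leukocytes. All animals were wild type (wt) and had a myocardial infarction. The labels give 1 sample with the infarct alone (MI) and 1 sample with the infarct and a PUR-hAESC patch, an antioxidant polyurethane scaffold with human amniotic epithelial stem cells laid on the heart (MI+PUR-hAESC), and how many animals stand behind each sample is not given in the sources used here. Each sample was profiled by droplet single-cell RNA sequencing, which tags captured transcript ends with a cell barcode and a unique molecular identifier (UMI). Both samples lie in 1 matrix, in which the barcodes end in suffix 1 or 2, called library 1 and library 2 here. Which suffix is which group could not be read from the labels or headers. The libraries are therefore compared as libraries, and nothing is said of the direction of treatment.

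C1q is the recognition molecule of the classical complement pathway. Its A, B and C chains join into triple-helical stems with globular heads that bind antibody complexes and dying cells, and tissue macrophages are a main source of it. Cleavage of the later components C3 and C5 frees the small peptides C3a and C5a, which act on the receptors encoded by C3ar1 and C5ar1 and draw and activate myeloid cells. Properdin, the product of Cfp, is released by myeloid cells and stabilises the C3 convertase of the alternative pathway. In RefSeq GRCr8, C1qb, C1qc and C1qa neighbour each other in this order on chromosome 5.

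The RefSeq GRCr8 promoter table held 4 of the 6 members, with 300 bases around each gene start, and these are shown because the chain genes C1qa and C1qb were detected together in single cells (values below), with C3ar1 and Cfp beside them. C1qc and C5ar1 had no entry. Capitals mark every match, on either strand, to 3 motifs: GAGGAA, the ETS core read by PU.1, TGCTGAC, a half-site of MAF factors, and TGANTCA, the AP-1 site. On the other strand the first of these reads TTCCTC. A MAF half-site on the other strand reads GTCAGCA, and the AP-1 letters are the same on both strands. Of all 33469 promoters in the table, 27.6% held GAGGAA, 4.44% TGCTGAC and 7.33% TGANTCA. The files' own genome build is not given in the sources used here, so the positions are those of RefSeq GRCr8.
C1qa, chr5:154419884-154420183, minus strand: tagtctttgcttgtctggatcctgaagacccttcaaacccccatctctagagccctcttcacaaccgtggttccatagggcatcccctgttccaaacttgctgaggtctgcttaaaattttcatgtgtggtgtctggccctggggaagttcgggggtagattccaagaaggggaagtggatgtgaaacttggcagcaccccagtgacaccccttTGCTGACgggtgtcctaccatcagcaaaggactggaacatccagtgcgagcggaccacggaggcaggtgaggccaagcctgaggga
C1qb, chr5:154407778-154408077, minus strand: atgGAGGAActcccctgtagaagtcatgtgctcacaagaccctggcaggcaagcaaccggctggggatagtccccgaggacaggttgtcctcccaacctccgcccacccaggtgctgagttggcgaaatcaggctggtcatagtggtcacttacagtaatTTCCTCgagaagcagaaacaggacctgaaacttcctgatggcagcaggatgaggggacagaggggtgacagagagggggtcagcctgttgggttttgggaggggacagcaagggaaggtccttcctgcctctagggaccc
C3ar1, chr4:157756481-157756780, minus strand: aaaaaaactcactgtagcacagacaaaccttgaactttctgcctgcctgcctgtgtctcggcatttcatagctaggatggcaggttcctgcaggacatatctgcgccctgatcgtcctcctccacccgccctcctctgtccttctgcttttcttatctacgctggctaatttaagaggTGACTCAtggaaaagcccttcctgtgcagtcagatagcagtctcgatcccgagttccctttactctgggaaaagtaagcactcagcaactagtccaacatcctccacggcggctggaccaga
Cfp, chrX:3715301-3715600, plus strand: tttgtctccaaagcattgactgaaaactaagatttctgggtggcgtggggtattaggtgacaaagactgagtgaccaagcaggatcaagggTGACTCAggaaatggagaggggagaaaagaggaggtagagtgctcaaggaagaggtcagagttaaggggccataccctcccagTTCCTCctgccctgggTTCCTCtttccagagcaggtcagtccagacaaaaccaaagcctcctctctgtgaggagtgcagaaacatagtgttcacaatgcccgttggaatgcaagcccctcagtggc

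The MAF half-site of C1qa lay at bases -36 to -30 from the gene start and that letter string was absent from the 300-base window of C1qb, while C1qb held GAGGAA at -247 to -242 and its reverse at -90 to -85. The AP-1 letters stood at -72 to -66 in C3ar1 and at -159 to -153 in Cfp, and Cfp held TTCCTC at -76 to -71 and at -60 to -55. Each match is a description of letters and not a shown binding site.

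Library 1 held 14283 barcodes with 72506643 UMIs and a median of 3692 UMIs per barcode, and library 2 held 15666 barcodes with 82802439 UMIs and a median of 4367.5. After filters and doublet removal, 13334 and 14434 cells remained, and 71 barcode sequences occurred in both libraries. Cells were sorted into gates by marker genes that include none of the 6 members: a cell took the class with the highest share of its markers detected, with at least 3. The macrophage gate (markers Csf1r, Adgre1, Lgmn, Ms4a7, Dab2, Pltp and Cd68 among others) held 2293 and 1999 cells, the neutrophil gate 3736 and 1567, the T gate 2082 and 3285, the NK gate 1142 and 1792, and the B gate 739 and 1512. The classical monocyte gate rested on 4 measured markers and held 727 and 309 cells, and the nonclassical monocyte gate held 258 and 673. Gates are ranges on a marker count: 234 and 223 macrophage-gated cells and 401 and 234 classical monocyte-gated cells had just the minimum of 3 markers. In macrophage clusters made without the members lay 89.6% and 86.6% of the macrophage-gated cells. Endothelial markers gated 117 and 44 cells and fibroblast markers 10 and 4, although the sort was for CD45. Barcodes with both lymphocyte and phagocyte markers (374 and 531) were left out as mixed.

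With 1 library per group there was no replicate, so no difference was tested. Values are the gate's summed counts per 1000000 UMIs (CPM), and the parentheses give exact 95% Poisson intervals for CPM and exact Clopper-Pearson intervals for shares, which cover counting error only. In summed counts, fewer positive cells and less RNA per cell cannot be told apart, and CPM of different genes also reflect how well each transcript end is captured, so genes are not ranked against each other.

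C1q transcripts were concentrated in the macrophage gate. C1qa, the A chain, stood at 2537 CPM in library 1 (2514 to 2561) and 3569 CPM in library 2 (3538 to 3601). C1qb, the B chain, stood at 1974 CPM (1954 to 1996) and 2217 CPM (2192 to 2242). C1qc, the C chain, stood at 1996 CPM (1975 to 2018) and 2547 CPM (2521 to 2574). Each chain was therefore higher in library 2, with intervals that did not overlap. Summed over the chains, C1q reached 6508 CPM and 8334 CPM, which was 171-fold and 161-fold the level of the B gate of the same library. The next gate, classical monocytes, stood at 487 CPM (470 to 505) and 756 CPM (722 to 791).

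In the other gates with at least 50 cells in each library C1q was low. Nonclassical monocytes held 150 CPM in library 1 and 48.3 CPM in library 2, neutrophils 49.6 and 57.0 CPM, B cells 38.0 and 51.7 CPM, NK cells 23.1 and 43.8 CPM and T cells 23.5 and 29.4 CPM. In the order given, each gate's range over the libraries overlapped that of the next, so no order among them is read. Barcodes left out as mixed stood at 1546 and 1836 CPM, and cells of no gate at 571 and 523 CPM. The conventional dendritic gate held 23 and 18 cells, with 4 and 12 C1q UMIs. A cluster named after the same markers held 239 and 276 cells and stood at 989 and 1056 CPM. Its median doublet scores were 0.135 and 0.155, and the part of doublets in its C1q was not tested.

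**Figure D1:**
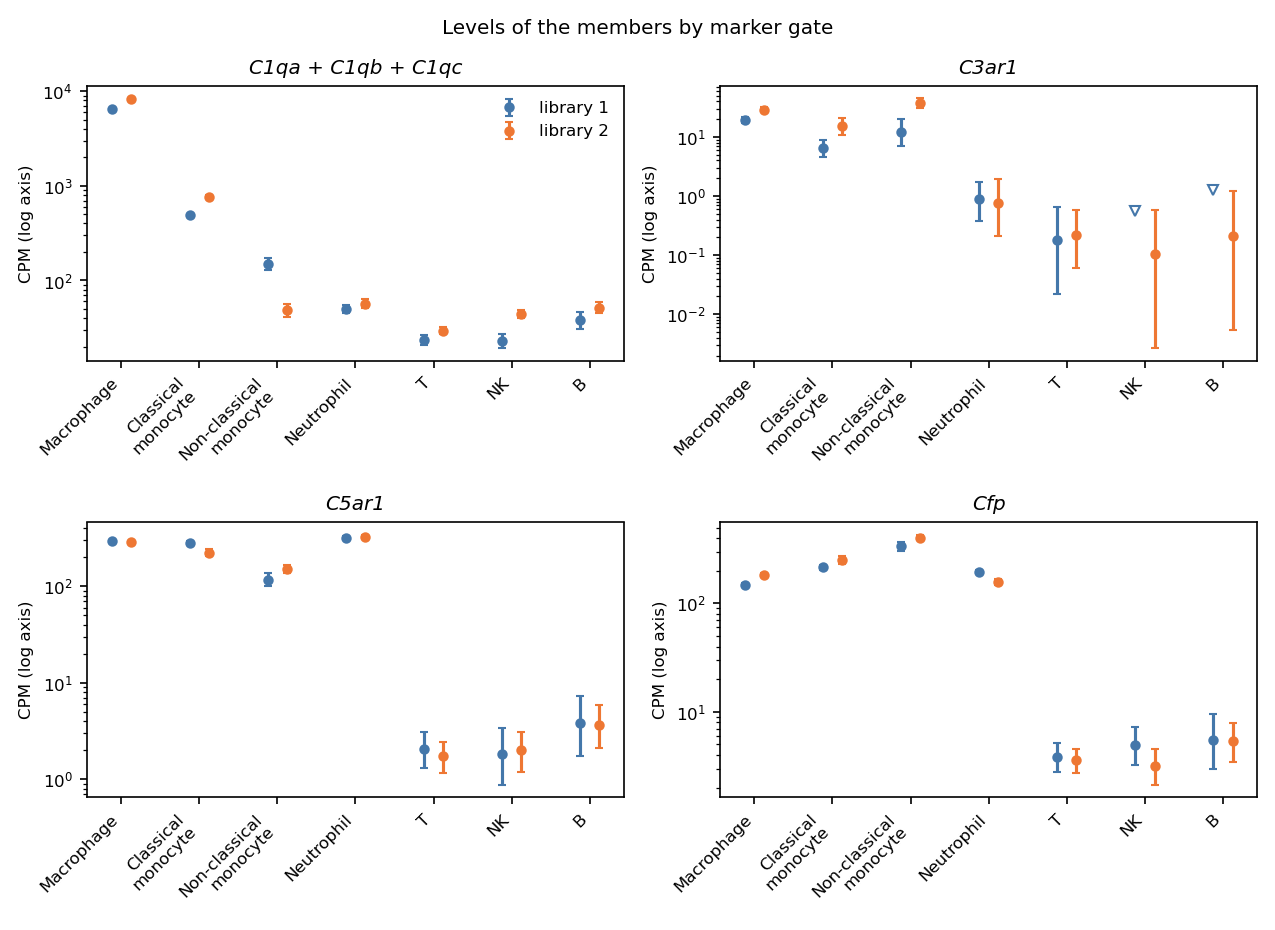
Levels of the C1q chains summed, C3ar1, C5ar1 and Cfp (CPM of summed counts, log axis) in 7 marker gates, with 1 point per library, exact 95% Poisson intervals as bars and open triangles at the level of 3 counts where none was found. C1q peaks in the macrophage gate at 6508 and 8334 CPM, C5ar1 is near 300 CPM in both macrophages and neutrophils, and Cfp is highest in the nonclassical monocyte gate.

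The levels in the monocyte gates rested on few cells. In the classical monocyte gate, the 5 cells with the most C1q held 34.7% of its C1q UMIs in library 1 and 62.8% in library 2, and the other cells stood at 318 and 281 CPM. In the nonclassical gate, 5 cells held 85.8% and 38.0%, and the others stood at 21.4 and 29.9 CPM. The difference between the libraries thus turned its direction in both monocyte gates once the C1q UMIs of 5 cells per library were set aside. These levels are the C1q UMIs of the other cells over all UMIs of the gate, with the 5 cells kept in the total. The same 5 cells are a larger part of 309 than of 727 classical and of 258 than of 673 nonclassical cells, so the libraries were trimmed unequally. In the macrophage gate, the 5 highest cells held 1.98% and 1.85% of the C1q UMIs, and the other cells stood at 6380 and 8179 CPM. Of the NK gate's C1q in library 2, 27.1% lay in 5 cells, with 32.0 CPM in the others against 19.8 CPM in library 1. Of the 219 C1q UMIs in 117 endothelial-gated cells of library 1, 208 also lay in 5 cells, and the others stood at 7.46 CPM.

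Library 2 over library 1, the macrophage-gate log2 ratio of CPM plus 10 was 0.49 for C1qa, 0.17 for C1qb, 0.35 for C1qc and 0.36 for the C1q sum. Of the 6 members, 0 passed a log2 ratio of 0.5 in either direction (with 1 CPM in place of 10 added, C3ar1 did, at 0.54), against 3.71% of 5394 genes that were higher in library 2 and 1.41% that were higher in library 1. The median over all these genes was 0.04. The direction of the C1q sum was the same in each of the 4 clusters named as macrophages, where C1q stood at 6798 and 7703 CPM in cluster 4, 3848 and 5265 CPM in cluster 7, 2888 and 4617 CPM in cluster 8 and 6121 and 8276 CPM in cluster 9. The gate's own markers summed to 5302 CPM in library 1 and 4417 CPM in library 2, and classical monocyte markers in it to 477 and 325 CPM. Conventional dendritic cell markers summed to 31.3 and 75.4 CPM, NK markers to 40.7 and 84.7 CPM and T cell markers to 15.1 and 26.0 CPM. At 1500 UMIs, cells with 6 or more UMIs of the scar list described below, which held less C1q, were 827 of 2199 in library 1 and 417 of 1930 in library 2. Cells with 3 or more UMIs of the resident list, which held more C1q, were 643 and 402 of these. Cells with interferon list transcripts, which also held more, were 408 and 957. Those with monocyte list transcripts, which held less, were 420 and 311. Those with 10 or more class II UMIs, which held more than cells with none, were 623 and 722. The part of each of these in the difference was not tested.

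In the classical monocyte gate, 3 of the 5 members at 20 CPM or more passed 0.5, namely C1qa (0.73), C1qb (0.51) and C1qc (0.53), where 8.06% of genes were higher in library 2. In the nonclassical gate the 3 chains were higher in library 1 (-1.03, -1.49 and -1.12), where 4.82% of genes were. Both sets of ratios include the few cells described above.

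The composition of C1q by chain differed between the libraries over the whole macrophage gate. It also varied among marker-list ranges and clusters named as macrophages, as given below. In the macrophage gate, C1qa made up 39.0% of C1q UMIs in library 1 (38.7 to 39.3) and 42.8% in library 2 (42.5 to 43.1). C1qb made up 30.3% (30.1 to 30.6) and 26.6% (26.3 to 26.9), and C1qc 30.7% and 30.6%. The higher C1qa share of library 2 was thus matched by a lower C1qb share, while the C1qc intervals overlapped. These shares reflect capture of each transcript as well as its abundance, and they are not protein stoichiometry.

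Across ranges of 6 marker lists described below, the C1qa share ran from 37.7% to 39.8% in library 1, apart from 33.99% in the 63 cells with the most transcripts of dividing cells, and from 41.1% to 44.6% in library 2. The C1qb share ran from 28.1% to 32.3% in library 1, apart from 35.7% in the same 63 cells, and from 24.5% to 29.2% in library 2. Both ends of the class II list gave 32.3% (lowest range) and 28.1% (highest) in library 1 and 27.7% and 24.5% in library 2. Among the 4 clusters named as macrophages, cluster 8 of library 1 stood apart, with C1qa at 31.1% (28.8 to 33.5) and C1qb at 37.7% (35.2 to 40.2) of 1502 C1q UMIs, against 38.4% to 39.3% and 28.7% to 31.2% in clusters 4, 7 and 9. In library 2 cluster 8 held 42.0% C1qa and 30.2% C1qb. The departure of cluster 8 in library 1 was thus larger than the difference between the libraries over the gate. Cluster 8 was shallow, with a median of 1561.5 UMIs in library 1, against 8501, 2843.5 and 8371 in clusters 4, 7 and 9. Cells of no gate in library 1 stood at 35.4% C1qa and 35.2% C1qb. The part of depth or of background counts in the shares of cluster 8 was not tested. Outside the macrophage gate the shares rested on few UMIs. In neutrophils C1qb made up 37.6% of 449 C1q UMIs in library 1 (33.1 to 42.3) and 37.0% of 300 in library 2 (31.5 to 42.7), above the macrophage share in both libraries. In B cells C1qb made up 41.6% of 89 UMIs (31.2 to 52.5) and 32.8% of 241 (26.9 to 39.1), while in T cells the C1qb intervals (29.8 to 41.8 and 24.4 to 32.2) included the macrophage share.

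**Figure D2:**
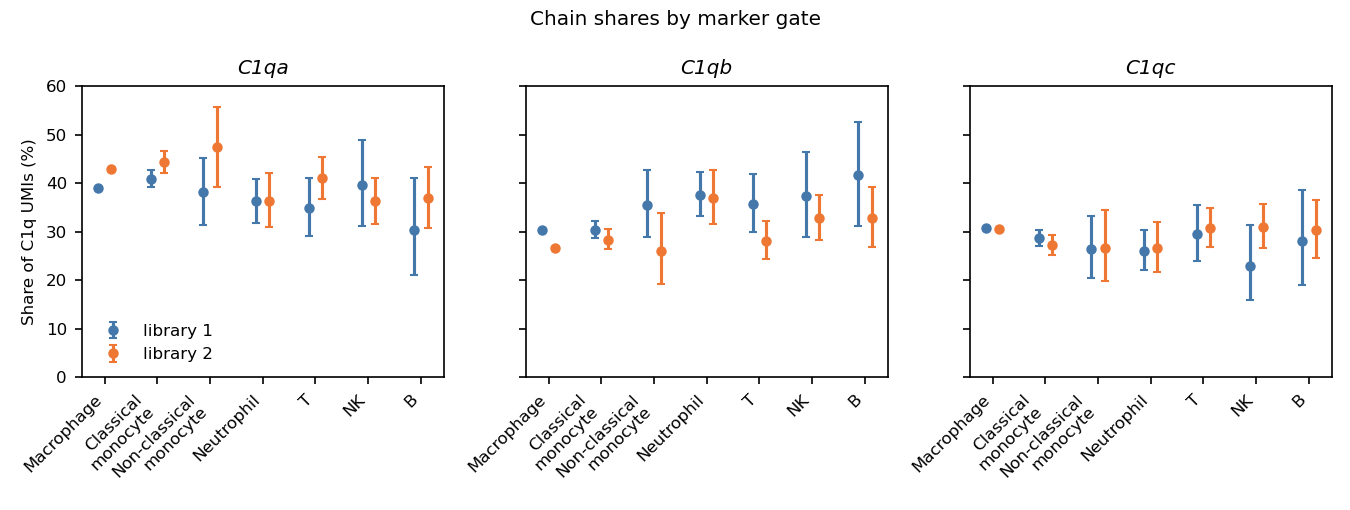
Share of C1q UMIs (percent) from C1qa, C1qb and C1qc in each marker gate and library, with exact 95% Clopper-Pearson intervals. The macrophage gate gives narrow intervals with C1qa at 39.0% in library 1 and 42.8% in library 2, and the lymphoid gates give wide ones.

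To compare cells at equal depth, 1500 UMIs were drawn at random from every cell, and shallower cells were left out (94 and 69 of the macrophage gate). The 3 chains were then detected together more often than separate detection would give. All 3 chains were found in 45.5% of 2199 macrophage-gated cells in library 1 (43.4 to 47.6) and in 54.1% of 1930 in library 2 (51.8 to 56.3). Independent detection at the same single-chain shares would give 15.8% and 25.3%. No chain was found in 37.3% and 28.5%, where independence would give 9.72% and 4.92%. The expected values use single-chain shares of the whole gate, so a mix of cells with and without C1q also gives such an excess. The comparison cannot tell such a mix from a link between the chains among alike cells. A single chain was found in 8.87% and 7.25%, and a pair of chains in 8.37% and 10.2%. Most macrophage-gated cells thus held either the whole set or none of it at this depth.

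Among cells with C1qa in library 1, 88.7% also held C1qb, against 11.0% of cells without C1qa, and in library 2 the shares were 86.5% and 10.1%. Across the macrophage-gated cells, the UMIs of chain pairs gave Pearson correlations of 0.78 to 0.82 and Spearman correlations of 0.84 to 0.87 over 2199 and 1930 cells. The cells of a library share its preparation, so these describe the cells and were not tested. Among cells with 5 or more C1q UMIs the Pearson correlations were 0.63 to 0.68.

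Lymphocytes, which should lack C1q, gave the background of such counts. At 1500 UMIs any C1q UMI was found in 62.7% and 71.5% of macrophage-gated cells, and without thinning in 71.0% and 78.5% (median depth 6991 and 6523 UMIs). In the B gate it was found in 36 of 720 cells (3.53 to 6.86%) and 6.64% (5.43 to 8.03) after thinning, and in 9.61% and 13.6% before it, at median depths of 2955 and 2843 UMIs. In neutrophils the thinned share was 5.57% (up to 6.38) and 7.59% (from 6.28). These intervals overlapped those of B cells, so neutrophils are not placed above the B gate. All 3 chains were found together in 0 of 720 and 0 of 1491 B-gated cells, where 3 cells would be 0.417% and 0.201%. The exact upper limits there were 0.511% and 0.247%. In T-gated cells it was 0 of 2066 and 0 of 3214, where 3 cells would be 0.145% and 0.0933%. The exact upper limits there were 0.178% and 0.115%. These limits are for cells with a UMI of every chain and not for cells that express the genes. Neutrophils held all 3 chains in 1 of 3500 and 3 of 1463 cells (0.0286% and 0.205%), where independence would give 0.000747% and 0.00221%. The origin of C1q counts in neutrophils was not tested.

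Classical monocyte-gated cells were split in the same way on a small scale. Any C1q was found in 7.20% (5.43 to 9.34) and 9.71% (6.65 to 13.6), close to the B-gate background, but all 3 chains in 21 of 722 cells (2.91%) and 14 of 309 cells (4.53%). In the nonclassical gate it was 2 of 254 and 0 of 671 cells. Macrophage markers summed to 2171 and 1869 CPM in the classical monocyte gate, and their part in its C1q was not tested.

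The amount of C1q per macrophage-gated cell was spread widely. At 1500 UMIs a cell held on average 10.5 C1q UMIs in library 1 and 13.6 in library 2, with medians of 4 and 8. The upper quartile was 17.5 and 23 UMIs, the 90th percentile 32 and 36 UMIs, and the highest cell held 109 and 107. The tenth of cells with the most C1q held 40.4% and 34.4% of all C1q UMIs of the gate. With 5 or more UMIs stood 47.8% (45.7 to 49.95) and 58.1% (55.9 to 60.3) of cells, against 0 of 720 and 1 of 1491 B-gated cells.

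**Figure D3:**
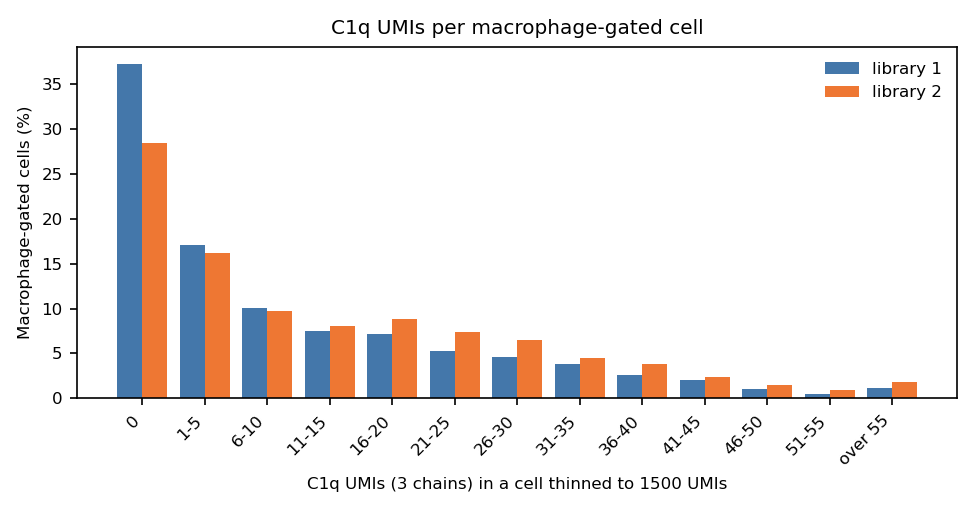
C1q UMIs per macrophage-gated cell (all 3 chains, each cell thinned to 1500 UMIs) against the percentage of cells, for both libraries. Cells without a C1q UMI make up 37.3% of library 1 and 28.5% of library 2, and a long tail reaches above 100 UMIs.

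C1q rose with the resident macrophage list and was lower in cells with monocyte list transcripts. Along the scar macrophage list it was lowest in the highest range. Cells were ordered by the UMIs of each list at 1500 UMIs per cell, with the same limits in both libraries. For the resident list, of which Lyve1, Folr2, Cd163 and Mrc1 were measured, C1q stood at 3223 CPM in cells with none of its transcripts (3117 to 3332), 6544 CPM in cells with 1 or 2 and 11902 CPM in cells with 3 or more (11685 to 12121) in library 1. In library 2 it stood at 5855, 9149 and 14814 CPM. The highest range was thus 3.69-fold and 2.53-fold the lowest. All 3 chains were found in 24.97% of the lowest and 68.4% of the highest range in library 1, and in 40.7% and 72.9% in library 2.

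For the scar list, Spp1, Gpnmb, Fabp5 and Trem2, C1q stood at 8963 CPM in cells with 0 or 1 UMI of the list, 9776 CPM with 2 to 5 and 3123 CPM with 6 or more in library 1. In library 2 the values were 9516, 11134 and 4783 CPM. The lowest range was 2.87-fold and 1.99-fold the highest, and the middle range was above both. For the monocyte list (Vcan, Thbs1, Fcnb, Emilin2), C1q stood at 7854 CPM in cells without and 3497 CPM in cells with its transcripts in library 1, and at 9903 and 4637 CPM in library 2. Before thinning, the ranges of these 3 lists had median depths from 6191 to 8684.5 UMIs.

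The other lists moved less. For class II antigen presentation genes (RT1-Da, RT1-Ba, RT1-Bb, RT1-Db1), C1q stood at 5838, 8691 and 8156 CPM from the lowest to the highest range in library 1 and at 7410, 10342 and 9881 CPM in library 2. For interferon response genes it stood at 6696 and 8453 CPM without and with their transcripts in library 1, and at 8230 and 9892 CPM in library 2. For genes of dividing cells, cells with 0 UMIs of the list were set beside cells with 2 or more, and cells with 1 were left out. C1q stood at 6870 CPM in the former and 8032 CPM in 63 cells of the latter in library 1. In library 2 it stood at 8990 CPM and, in 99 cells, at 8761 CPM, where the direction turned.

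**Figure D4:**
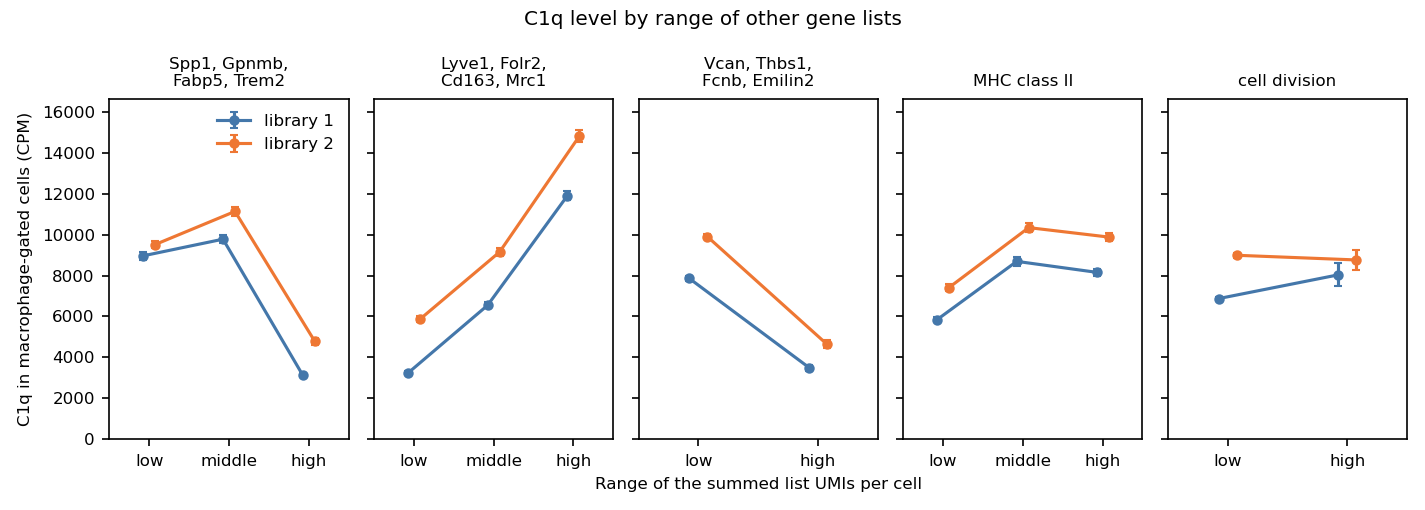
C1q level (CPM, all 3 chains, cells thinned to 1500 UMIs) in macrophage-gated cells by range of marker-list UMIs, 1 panel for each of 5 lists and 1 line per library, with exact 95% Poisson intervals. C1q climbs with the resident list, to 11902 and 14814 CPM, and along the scar list it is lowest in the high range.

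Single genes of the lists did not all follow their list. From cells with 0 to cells with 5 or more C1q UMIs, Spp1, osteopontin, went from 6091 to 595 CPM in library 1 and from 3032 to 545 CPM in library 2. Gpnmb went from 2602 to 793 CPM and from 1461 to 512 CPM, and Fabp5, a fatty acid binding protein gene, from 1291 to 300 CPM and from 944 to 236 CPM. Trem2, a lipid-sensing receptor gene of the same list, went the other way, from 655 CPM (611 to 702) to 912 CPM (865 to 960) and from 405 CPM (363 to 451) to 757 CPM (716 to 800). Mrc1, the mannose receptor gene, went from 287 to 891 CPM and from 192 to 545 CPM, and Lyve1, a hyaluronan receptor gene, from 63.4 to 318 CPM and from 92.1 to 192 CPM. Among monocyte genes, Vcan, which encodes versican, went from 253 to 43.1 CPM and from 177 to 27.9 CPM, and Fcnb and Thbs1 also fell in both libraries. Emilin2 of the same list did not clearly follow. It went from 35.8 CPM (26.0 to 48.0) to 27.2 CPM (19.7 to 36.7) in library 1 and from 25.5 to 26.1 CPM in library 2. These genes are not members and were picked after their values were seen.

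C3ar1, the C3a receptor gene, was low, and of the 7 gates the macrophage and both monocyte gates held it at more than 1 CPM. It stood at 19.6 CPM in the macrophage gate of library 1 (17.5 to 21.8) and 28.9 CPM in library 2 (26.1 to 31.8), from 336 and 398 UMIs. In nonclassical monocytes it stood at 12.2 CPM (6.98 to 19.8) and 37.3 CPM (30.9 to 44.8). In classical monocytes it stood at 6.53 CPM (4.67 to 8.89) and 15.3 CPM (10.8 to 21.0). Library 2 was higher in all 3 gates with intervals apart, and the macrophage and nonclassical ranges over the libraries overlapped, so neither is placed above the other. Neutrophils held 8 and 4 UMIs (0.883 and 0.759 CPM), and T, NK and B cells together held 2 UMIs in library 1 and 6 in library 2, with 0 in NK and B cells of library 1, where 3 counts would be 0.549 and 1.28 CPM.

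The log2 ratio of C3ar1 was 0.39 in the macrophage gate and 1.09 in the nonclassical gate, where 6.56% of genes passed 0.5 in that direction. At 1500 UMIs C3ar1 was found in 2.41% (1.81 to 3.14) and 4.15% (3.30 to 5.13) of macrophage-gated cells and in 0 of 720 and 0 of 1491 B-gated cells, and without thinning in 12.6% and 16.4% of macrophage-gated cells. Its level went from 7.32 CPM (3.35 to 13.9) in macrophage-gated cells without C1q to 19.6 CPM (13.3 to 27.9) in those with 5 or more C1q UMIs in library 1, where the intervals overlap, and from 14.5 CPM (7.52 to 25.4) to 35.1 CPM (26.7 to 45.2) in library 2. Cells with 1 to 4 C1q UMIs stood at 28.5 CPM (15.6 to 47.9) and 36.2 CPM (19.8 to 60.7), so no steady rise with C1q is read.

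C5ar1, the C5a receptor gene, was shared by neutrophils and mononuclear phagocytes. In neutrophils it stood at 318 CPM in library 1 (307 to 330) and 324 CPM in library 2 (309 to 340), and in macrophages at 297 CPM (288 to 305) and 286 CPM (277 to 295). In classical monocytes it stood at 279 CPM (266 to 293) and 223 CPM (204 to 242), and in nonclassical monocytes at 118 CPM (99.7 to 138) and 151 CPM (138 to 165). In T, NK and B cells it stood at 1.73 to 3.84 CPM, so the neutrophil level was 82.9-fold and 88.9-fold that of the B gate. The order of the gates was the same in both libraries, but in library 1 the macrophage and classical monocyte intervals overlapped.

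In macrophages and neutrophils C5ar1 differed little between the libraries. Its log2 ratio was 0.03 in neutrophils and -0.05 in macrophages, with overlapping intervals in both, and -0.31 in classical monocytes, where they were apart. In the neutrophil gate 0 of the 4 members at 20 CPM or more passed 0.5, against 5.56% of genes that were higher in library 2 and 7.3% that were higher in library 1. At 1500 UMIs C5ar1 was found in 36.9% and 37.7% of neutrophils, 34.1% and 33.2% of macrophage-gated cells and 0.833% and 0.604% of B-gated cells, and without thinning in 49.1% and 59.0% of neutrophils (median depth 2254 and 2622 UMIs), 67.3% and 66.6% of macrophage-gated cells and 1.22% and 1.06% of B-gated cells.

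Within macrophages C5ar1 was more frequent where C1q was found. It was detected in 38.4% of cells with a C1q UMI and 26.7% of cells without in library 1, and in 35.4% and 27.6% in library 2. Its level went from 228 CPM (203 to 257) without C1q to 349 CPM (321 to 380) with 5 or more C1q UMIs in library 1 and from 241 CPM (209 to 277) to 314 CPM (288 to 342) in library 2. Cells with 1 to 4 C1q UMIs stood at 363 CPM (312 to 420) and 359 CPM (302 to 424). The level was thus no higher at 5 or more than at 1 to 4 C1q UMIs. Among cells with 5 or more C1q UMIs, the amount of C1q and of C5ar1 gave Pearson correlations of -0.01 and 0.04 over 1052 and 1122 cells. From the lowest to the highest range of the scar list, C5ar1 went from 262 to 333 CPM in library 1 and from 250 to 347 CPM in library 2. C1q was lower in the highest of these ranges than in the lowest.

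Cfp, the properdin gene, was highest in the nonclassical monocyte gate. It stood there at 337 CPM in library 1 (307 to 370) and 405 CPM in library 2 (383 to 428). Classical monocytes held 216 CPM (205 to 228) and 253 CPM (233 to 273), neutrophils 195 CPM (186 to 205) and 159 CPM (148 to 170), and macrophages 148 CPM (143 to 154) and 184 CPM (177 to 191). Neutrophils were above macrophages in library 1 and below them in library 2, so their order is not read. T, NK and B cells held 3.15 to 5.55 CPM, and the nonclassical level was 60.8-fold and 75.4-fold that of the B gate. The nonclassical gate held 2975 and 3571 CPM of its own markers. It also held 2650 and 2975 CPM of neutrophil markers and 2267 and 2030 CPM of macrophage markers. No cluster was named after this gate, and the part of such markers' cells in its Cfp was not tested.

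Cfp was higher in library 2 in the 3 mononuclear gates, with log2 ratios of 0.29 in macrophages, 0.22 in classical and 0.26 in nonclassical monocytes, and lower in neutrophils at -0.28. The intervals were apart in each. At 1500 UMIs it was found in 39.8% and 41.3% of nonclassical monocyte-gated cells, against 1.25% and 0.872% of B-gated cells, and without thinning in 77.9% and 79.8% (median depth 4572.5 and 4392 UMIs), against 1.62% and 1.52%.

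Within macrophages Cfp was lower at the high end of the scar list, going from 236 CPM (207 to 268) to 210 CPM and 56.4 CPM (44.0 to 71.3) in library 1 and from 269 CPM (242 to 300) to 190 CPM and 59.2 CPM (41.6 to 81.5) in library 2. The lowest range was 4.19-fold and 4.55-fold the highest. Along class II genes it went the other way, from 105 to 274 CPM in library 1 and from 142 to 253 CPM in library 2. Against C1q it moved less, from 142 CPM (122 to 165) without C1q to 191 CPM (170 to 214) with 5 or more UMIs in library 1 and from 206 CPM (176 to 239) to 194 CPM (173 to 216) in library 2, where the direction turned. Cells with 1 to 4 C1q UMIs stood below both in each library, at 108 CPM (80.9 to 141) and 189 CPM (148 to 237). Along the scar list, both Cfp and C1q were thus lowest in the highest range.

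C5ar1 and Cfp were detected together at shares near those that independence gives, with departures in both directions. In macrophages both were found in 5.87% and 6.84% of cells against 6.72% and 7.61% under independence, and in neutrophils in 8.63% and 7.72% against 8.85% and 7.58%. In nonclassical monocytes the shares were 6.30% and 8.20% against 6.42% and 8.06%. The expected value lay inside the exact interval in each of these 6 cases, but that interval is of the joint share and does not test independence. Macrophage-gated cells with C5ar1 held Cfp in 17.2%, and those without in 21.0%, in library 1. In library 2 these shares were 20.6% and 24.0%. In the classical monocyte gate of library 1 the direction was the opposite, with 32.5% and 24.1%.

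Over the 7 gates of both libraries, 14 points that share their library and cells, the genes most like each member were listed by Pearson correlation of log2 CPM plus 10 among 4025 genes. For C1q they were Cttnbp2nl (0.99), Snx24, Trim47, Tmem176b and Ltc4s, the leukotriene C4 synthase gene. For C3ar1 they were Clec4a3 (0.97), Pla2g2d, Pmp22, Snx6 and Ccdc90b, and for C5ar1 Tm6sf1 (0.996), Clec12a, Tf, Aif1 and Lyz2. For Cfp they were Nfam1 (0.996), Xdh, Ltbr, Clec4a2 and Csf2ra, which encodes a chain of the GM-CSF receptor. No common function is read from these lists.

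Other complement genes were spread over the gates. Of 47 listed genes 46 were in the file, and 21 reached 20 CPM in some gate. The macrophage gate was the highest gate of 8 of these 21, among them Cfd, the alternative pathway protease factor D (654 and 526 CPM), C2, a classical pathway protease (114 and 188 CPM), and C6 of the membrane attack complex (94.9 and 94.4 CPM). Fcnb, a ficolin of the lectin pathway, was highest in classical monocytes (1978 and 3006 CPM). Cd59 (925 and 1002 CPM) and Cd55 (402 and 446 CPM), which protect cells from complement, were highest in nonclassical monocytes, and so was C3 itself (97.7 and 84.6 CPM). Cr2, complement receptor 2, stood at 161 and 148 CPM in B cells and reached 20 CPM in no other gate.

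C1r and C1s encode the proteases that join C1q in the C1 complex. C1r stood at 8.45 and 31.4 CPM in the macrophage gate and C1s at 0.350 and 1.16 CPM, from 6 and 16 UMIs. Of the 20 complement genes at 20 CPM in the macrophage gate, 5 were higher in library 2 past 0.5 and 0 higher in library 1, against the 3.71% and 1.41% of all genes given above, and the list median was -0.05 beside 0.04 for all genes. The 5 were C1r, C3 (9.56 and 37.9 CPM), Serping1, the C1 inhibitor gene (17.9 and 36.7 CPM), Cd93, a receptor gene once linked to C1q binding (20.7 and 47.5 CPM), and C2. Fibroblast markers in the gate summed to 15.8 and 30.3 CPM over 5 of 6 measured markers, with Col1a2 at 0, and their part in these differences was not tested.

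In the other gates, 7 of 19 listed genes were higher in library 2 and 2 in library 1 in classical monocytes, against 8.06% and 4.43% of all genes. In nonclassical monocytes 0 of 17 were higher in library 2 and 4 in library 1, against 6.56% and 4.82%, and in neutrophils 0 and 1 of 11, against 5.56% and 7.3%. In NK cells 1 of 8 was higher in library 2, against 2.43% of genes (2.04% were higher in library 1), namely Cd93 (82.0 and 208 CPM). In T and B cells 0 of 6 passed in either direction, where 1.13% and 1.15% of genes were higher in library 2 and 1.2% and 1.33% in library 1.

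**Figure D5:**
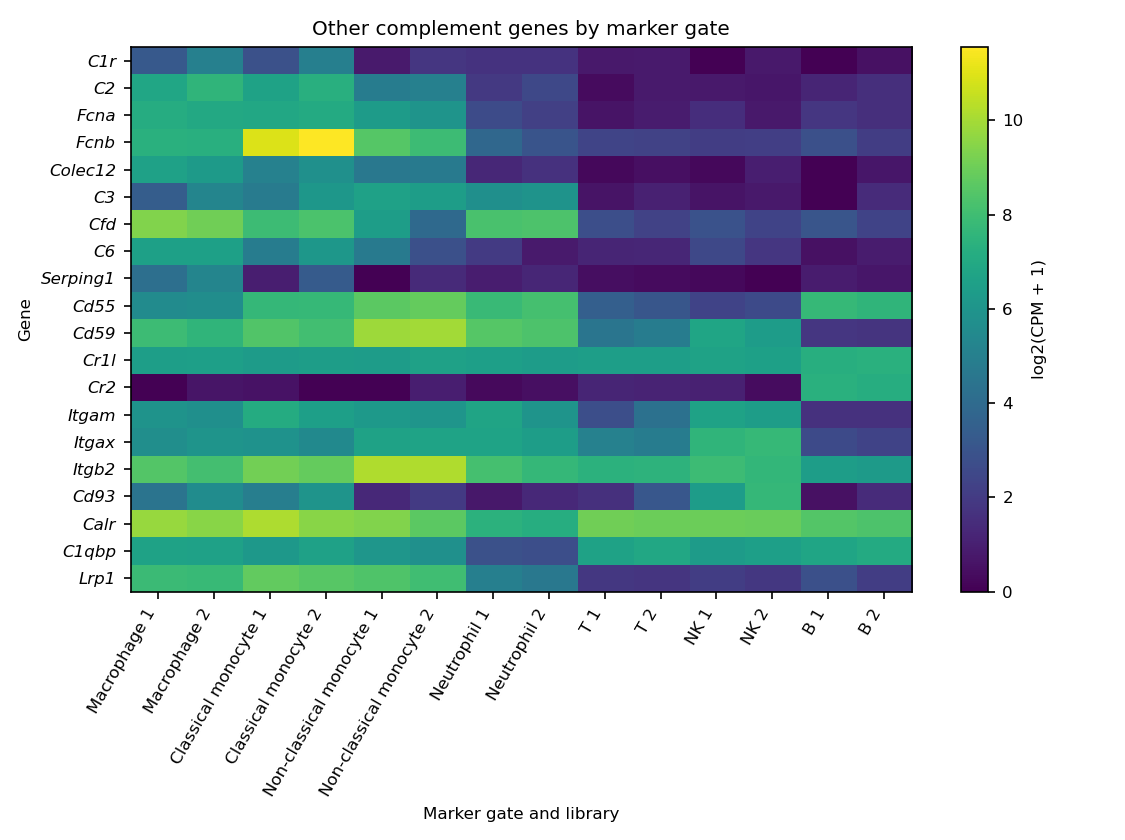
Levels of listed complement genes that reach 20 CPM in some gate, as colour (log2 of CPM plus 1), by marker gate and library. Cfd is strongest in the macrophage gate, Fcnb in classical monocytes, Cd59 and Itgb2 in nonclassical monocytes and Cr2 in B cells.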

How the data were processed

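The authors deposited 1 matrix of raw UMI counts per gene and barcode, written by Cell Ranger 4.0.0 per the file headers, with its genome build and annotation not given in the sources used here. It held 32623 genes on 26976 symbols, and lines of 1 symbol were summed. A deposited cell table of 33756 barcodes shared 111 barcodes at the same suffix and was not used.

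Barcodes under 200 genes or over 20% mitochondrial UMIs (315 and 235) were left out, and Scrublet (expected rate 8%) removed 634 and 997 doublets. A cell took the class with the highest share of measured markers detected, at least 3. The thymocyte class took a cell first at 2 markers, and barcodes with 3 lymphocyte and 4 phagocyte markers were mixed. These gate details were set after the data were seen, and the members and lists were chosen with earlier results of these data known.

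Ratios are log2 of CPM plus 10 in library 2 over library 1, for genes at 20 CPM or more in either, and past 0.5 counts as called. All 6 members are named in every gate of at least 50 cells in each library, complement genes may be named at 20 CPM in some gate, and the 5 genes most like each member were taken at 50 CPM or more without members, markers, mitochondrial and ribosomal protein genes. Some listed genes are not reported here. Alternatives were other gate limits, doublets or mixed barcodes kept, 10% mitochondrial UMIs, Leiden clusters (2000 variable genes, 30 components, 15 neighbours, resolution 1), edgeR TMM factors, a pseudocount of 1, the B-gate level subtracted, the mean over cells, no minimum, and thinning to 1000 or 3000 UMIs. Python 3.11.15 with numpy 2.4.6, pandas 2.3.3, scipy 1.17.1, scikit-learn 1.9.0, scanpy 1.11.5, igraph 0.11.9 and matplotlib 3.10.9, and R 4.3.3 with edgeR 4.0.16, were used.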

Additional observations from a re-analysis of the deposited data

How the results depend on the processing

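Of 71 recomputed values, 59 stayed within counting error of the reported one or, for counts of genes, within 1.5 times, and 12 moved by more. The macrophage log2 ratio of C1q, 0.36, became 0.37 with a gate minimum of 2 markers, 0.37 with doublets kept, 0.33 at 10% mitochondrial UMIs, 0.34 in Leiden clusters made without the members, 0.29 with edgeR TMM factors and 0.30 with mixed barcodes kept, an alternative chosen after seeing the data. The share of macrophage-gated cells with all 3 chains, 45.5% and 54.1%, became 48.8% and 57.8% with a gate minimum of 4 markers, 39.2% and 49.7% at 1000 UMIs and 52.0% and 61.8% at 3000 UMIs. The log2 ratio of C3ar1 in the macrophage gate, 0.39, was 0.54 with a pseudocount of 1, past 0.5, and that of C5ar1 in neutrophils, 0.03 with overlapping intervals, ranged from -0.01 with doublets kept to 0.10 with TMM factors. No other of these ratios changed sign. Genes past 0.5 in the macrophage gate numbered 200 higher in library 2 and 76 higher in library 1, and 235 and 98 with no minimum. The Leiden clusters held no classical monocyte class, so Cfp has no value there. No paired analysis was possible because each group has 1 library, and for the same reason no replicate could be left out. The depth limits values that rest on few UMIs, such as C3ar1 outside the macrophage gate.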
